A study of Mus musculus with 4 samples.

Results

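The suprabasal squamous keratins are 6 genes, *Krt1*, *Krt10*, *Krt4*, *Krt13*, *Krt75* and *Krt78*, chosen by name with earlier results of these data known. They are represented by 9 probes of the 39429 on the array, which carries 29924 gene names. All 9 probes were well above background in all 8 pools of RNA, so that every member entered the tests together with 20229 genes in all.

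Ureters were dissected from newborn (P0) NMRI mice and cultured for 8 days on transwell membranes. *Pparg-cKO* ureters carried *Pax2-cre/+; Pparg (fl/fl)*, in which a cre line active in the nephric duct, the ureteric epithelium and the collecting ducts of the kidney removes exons 2 and 3 of *Pparg*, the gene of a lipid-activated nuclear receptor. Control ureters came from littermates labelled Pparg (fl/?), which had no cre and for which the state of the other *Pparg* allele is not stated. Ureters of both genotypes were kept in DMSO, the solvent, or in 2 µM purmorphamine, an agonist of SHH signaling that acts on Smoothened. The 4 groups had 2 pools each, of male (replicate 1) and of female (replicate 2) ureters; the sources used here do not give the number of ureters in a pool. On each of the 4 dual-color arrays, the treated and the untreated pool of 1 genotype and 1 sex were hybridized together. The dyes were exchanged between male and female arrays, so that sex and dye cannot be told apart between pools of a group.

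Keratins build the intermediate filaments of epithelial cells as obligate pairs of a type I and a type II protein. KRT1 (type II) and KRT10 (type I) pair in the suprabasal, cornifying layers of the epidermis, whereas KRT4 (type II) and KRT13 (type I) pair in the suprabasal layers of mucosal squamous epithelia such as esophagus and tongue, and KRT13 is also found in the basal and intermediate layers of urothelium. KRT75 is a type II keratin of the companion layer of the hair follicle, and KRT78 is a type II keratin of suprabasal squamous cells. Urothelium itself is built mainly on simple-epithelium keratins, with KRT5 in its basal and KRT20 in its superficial cells.

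The probes decide what is measured, and 5 of the 9 are shown, those inside the coding region. *Krt13* and *Krt10* each have a pair of probes, which for *Krt13* gave different pictures. All are given 5′ to 3′ as deposited, each is 60 bases long, and all lie on the minus strand of mm9. The brighter *Krt13* probe (chr11:99982471-99982530) begins at base 279 of the transcript and covers the conserved start of the keratin rod, whose codons are in capitals. The dimmer one (chr11:99980412-99980471) begins at base 885.
*Krt13*, brighter probe: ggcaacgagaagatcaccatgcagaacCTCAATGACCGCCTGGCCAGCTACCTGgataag
*Krt13*, dimmer probe: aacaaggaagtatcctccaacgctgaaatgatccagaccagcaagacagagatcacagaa
The dimmer *Krt10* probe (chr11:99247846-99247905) covers the conserved end of the rod, again in capitals.
*Krt10*, dimmer probe: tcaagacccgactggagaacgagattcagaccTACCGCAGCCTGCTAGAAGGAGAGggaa
The *Krt4* probe (chr15:101750158-101750736) crosses an intron.
*Krt4*: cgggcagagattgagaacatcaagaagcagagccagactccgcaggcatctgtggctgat
The brighter *Krt78* probe (chr15:101776599-101776658) ends with the stop codon, in capitals.
*Krt78*, brighter probe: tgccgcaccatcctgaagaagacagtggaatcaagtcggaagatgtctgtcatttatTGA
The other *Krt78* probe overlaps it by 50 bases and is therefore no independent measurement. In ungapped comparisons with all 60-base probes of the array, no probe of another gene had more than 32 bases in common with a member probe. Binding of other keratin transcripts to the probes over the conserved rod ends was not tested, since no transcript sequences were used here.

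Values are given below as scaled intensities, the processed signals after each channel was brought to a 75th percentile of 1500, with a floor of 15. Log2 fold changes and adjusted p-values come from limma on normexp- and loess-normalized intensities, with Benjamini-Hochberg adjustment over all genes and a threshold of 0.05. With 2 pools a group, p-values measure only the spread between these pools, and an intensity of 1 probe is never set against that of another. Where groups are said not to overlap, this only describes the values of these pools. The share of all genes without overlap was not counted. RNA was taken from whole ureters, so fewer cells of a type and less RNA per cell cannot be told apart. The only *Pparg* probe lies near the end of the transcript, outside the deleted exons, and so does not check the genotype. It gave 10612 and 14540 in the control DMSO pools and 16971 and 17107 in the *Pparg-cKO* DMSO pools. *Ptch1*, a direct target of SHH signaling, rose with purmorphamine by a log2 fold change of 1.00 ± 0.12 (SE) in control and 1.62 ± 0.12 in *Pparg-cKO* ureters (limma, Benjamini-Hochberg adjusted p of 0.0427 and 0.014). *Xist* was at the floor of 15 in all male pools and at 1700 to 3487 in the female ones. All 16 urothelial markers examined were above background in every pool. Their summed scaled intensity was lower in *Pparg-cKO* than in control pools. It was 176721 and 195067 against 222134 and 221628 with DMSO, and 205535 and 209693 against 273611 and 281220 with purmorphamine. The markers did not move together. With DMSO, *Upk1a* was at 5098 and 4852 in *Pparg-cKO* against 11380 and 14708 in control pools. *Epcam* went the other way, at 7283 and 7753 against 5429 and 4307, and the ranges of *Krt5* and *Krt19* overlapped. All 8 markers of smooth muscle and lamina propria were above background too. Their sum was higher with purmorphamine (180065 to 211565) than with DMSO (115705 to 133785). Of these only *Aldh1a2* was lower with purmorphamine on each array. It went from 10965 and 9349 to 7777 and 6062 in control ureters, and from 6626 and 8966 to 6101 and 5951 in *Pparg-cKO* ureters. The 5 leukocyte markers above background in every pool (*Ptprc*, *Cd68*, *Cd3e*, *Itgam* and *Adgre1*) had a lower sum with purmorphamine on each array, from 37000 and 26777 to 25559 and 17793 in control and from 30607 and 29216 to 20246 and 23586 in *Pparg-cKO* ureters. Of these 5 only *Cd3e* was higher with purmorphamine on each array, from 115 and 95.6 to 127 and 157 in control ureters. In *Pparg-cKO* ureters it went from 56.9 and 61.0 to 59.3 and 68.3. The part of these 3 marker lists in the member results was not tested.

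**Figure D1:**
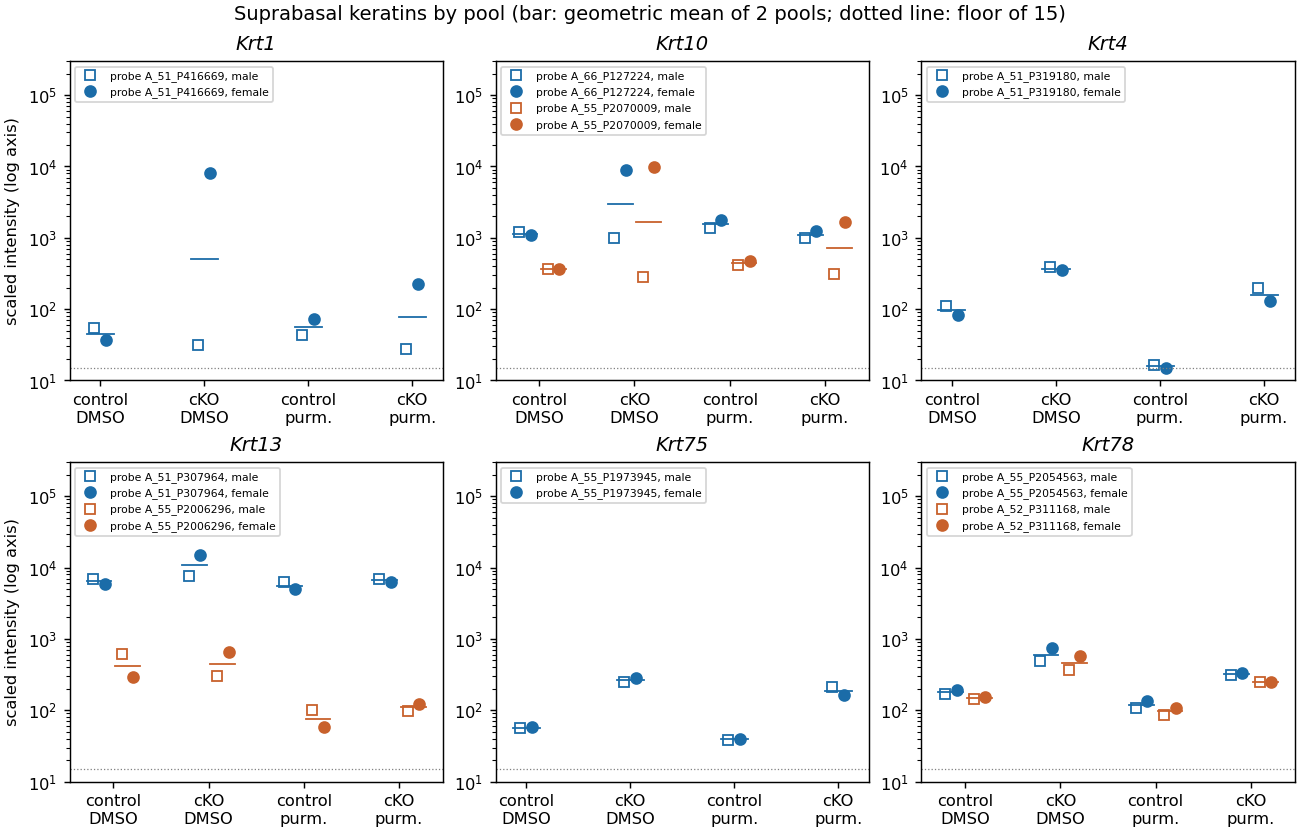
Scaled intensity (log axis) of every member probe in each of the 8 pools, with open squares for male and filled circles for female pools, colors for the probes of a gene and a bar for the geometric mean of the 2 pools. *Krt4*, *Krt75* and *Krt78* were higher in both *Pparg-cKO* pools than in both control pools of the same treatment, whereas *Krt1* and *Krt10* stood out in the female *Pparg-cKO* DMSO pool.

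To see how the loss of *Pparg* affected these keratins, *Pparg-cKO* and control pools kept in DMSO were compared first. *Krt4*, *Krt75* and *Krt78* rose about 3-fold by limma, in both the male and the female pair. The offset added to intensities for limma compresses changes of dim probes. By scaled intensities the male and female pairs rose 4.41- and 4.93-fold for *Krt75* and 3.46- and 4.27-fold for *Krt4*. For *Krt78* they rose 2.82- and 3.81-fold. *Krt13*, *Krt1* and *Krt10* did not pass the test. Thus 3 of the 6 members were called higher and 0 lower by limma, where 2.0% of all genes tested were called higher. By the rule of the study's methods (a scaled intensity above 100 in the brighter channel, and both the male and the female pair changed 1.5-fold or more the same way) *Krt4*, *Krt75* and *Krt78* were likewise higher, against 2.59% of the genes above that intensity. Since the members were chosen with earlier results known, such shares describe them here and below and do not test the set.

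*Krt75* was at 56.2 and 57.9 in the male and female control pools and at 248 and 285 in the *Pparg-cKO* pools. The groups did not overlap and each sex showed the rise. The log2 fold change was 1.79 ± 0.13 (SE; 3.47-fold, limma, Benjamini-Hochberg adjusted p = 0.00158).

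*Krt4* was at 111 and 83.0 in the control pools and at 384 and 354 in the *Pparg-cKO* pools. Again both *Pparg-cKO* pools lay above both control pools. The log2 fold change was 1.66 ± 0.17 (3.16-fold, limma, Benjamini-Hochberg adjusted p = 0.00546).

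*Krt78* was at 171 and 195 in the control pools and at 483 and 742 in the *Pparg-cKO* pools with its brighter probe. The groups did not overlap, and the female *Pparg-cKO* pool was the highest. The log2 fold change was 1.57 ± 0.19 (2.97-fold, limma, Benjamini-Hochberg adjusted p = 0.00883). The overlapping probe gave 1.43 ± 0.22. Without the male control array, which leaves only the female control pools, *Krt4* and *Krt78* were not called. Without the female control array, these and *Krt75* were not called. Fewer of all genes were called in both fits too. The log2 fold changes themselves stayed between 1.28 and 1.91 whichever array was left out.

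*Krt13*, the type I partner of *Krt4*, gave 7017 and 5954 in the control pools and 7694 and 14878 in the *Pparg-cKO* pools with its brighter probe. The *Pparg-cKO* pools lay above the control pools, but the male one only slightly, and the log2 fold change of 0.74 ± 0.29 did not pass (limma, Benjamini-Hochberg adjusted p = 0.274). The dimmer probe gave 607 and 292 in the control pools and 298 and 653 in the *Pparg-cKO* pools. Here the groups overlapped, with the male pair lower and the female pair higher in *Pparg-cKO*, and the log2 fold change was -0.01 ± 0.45. The probes of *Krt13* correlated over the 8 pools with a Pearson's r of 0.67, compared with 0.90 for the probes of *Krt10* and 0.998 for the overlapping ones of *Krt78*, given as a description of pools that share arrays.

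*Krt1* and *Krt10*, the epidermal pair, were very high in the female *Pparg-cKO* DMSO pool and in no other. *Krt1* was at 54.6 and 37.1 in the control pools and at 31.8 in the male and 8048 in the female *Pparg-cKO* pool. The female pools thus differed 217-fold, while the male *Pparg-cKO* pool was below both control pools. *Krt10* was at 1188 and 1098 in the control pools and at 980 in the male and 8841 in the female *Pparg-cKO* pool with its brighter probe. Its dimmer probe, over the end of the rod, gave 371 and 360 against 283 and 9973, so that both probes showed the same order of pools. Neither gene passed the test, with log2 fold changes of 3.25 ± 2.04 for *Krt1* and 1.35 ± 0.88 for *Krt10* (limma, Benjamini-Hochberg adjusted p of 0.54 and 0.559). Without the male *Pparg-cKO* array, which leaves only the female pool in that group, *Krt1* and *Krt10* had log2 fold changes of 6.85 and 2.94. Without the female *Pparg-cKO* array the changes were -0.36 and -0.25.

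The same pool was also high in other genes of cornifying epidermis. Of 11 epidermal markers beyond the members, 10 were on the array. In the female *Pparg-cKO* DMSO pool 8 of the 10 were above background, with a summed scaled intensity of 32362. In the male *Pparg-cKO* DMSO pool it was 4 with a sum of 600, and in the control DMSO pools it was 3 with sums of 379 and 395. *Lor*, the gene of loricrin, a main protein of the cornified envelope, was at 18536 in the female *Pparg-cKO* DMSO pool and at 136 to 329 in the other DMSO pools. *Krt2* and *Skint3* were above background in none of the 8 pools. With purmorphamine, the female *Pparg-cKO* pool had a sum of 1729 and 6 markers above background, against 514 and 4 in the male *Pparg-cKO* pool and 423 to 482 and 3 to 4 in the control pools. The part of these epidermal markers in the values of *Krt1* and *Krt10* was not tested. For *Krt75*, markers of hair follicle and nail were read beside it. Of these 14, all on the array, 6 to 8 were above background in each pool. The sums were 3236 and 3728 in control and 2817 and 3175 in *Pparg-cKO* pools with DMSO, and 3215 and 3569 against 2693 and 2654 with purmorphamine. The keratins *Krt25*, *Krt27*, *Krt28*, *Krt71* and *Krt34* and the regulator *Foxn1* were above background in no pool. The markers above background in every pool did not move together between the DMSO pools. *Tchh*, the gene of trichohyalin, was at 199 and 240 in control and at 553 and 512 in *Pparg-cKO* pools. *Padi3*, a peptidylarginine deiminase, was at 463 and 223 against 128 and 179, and *Msx2*, a homeobox regulator, at 2309 and 3031 against 1904 and 2238, both lower in *Pparg-cKO*. The ranges of *Krt73*, *Krt31* and *Krt33a* overlapped between the genotypes. The part of this list in the values of *Krt75* was not tested.

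**Figure D2:**
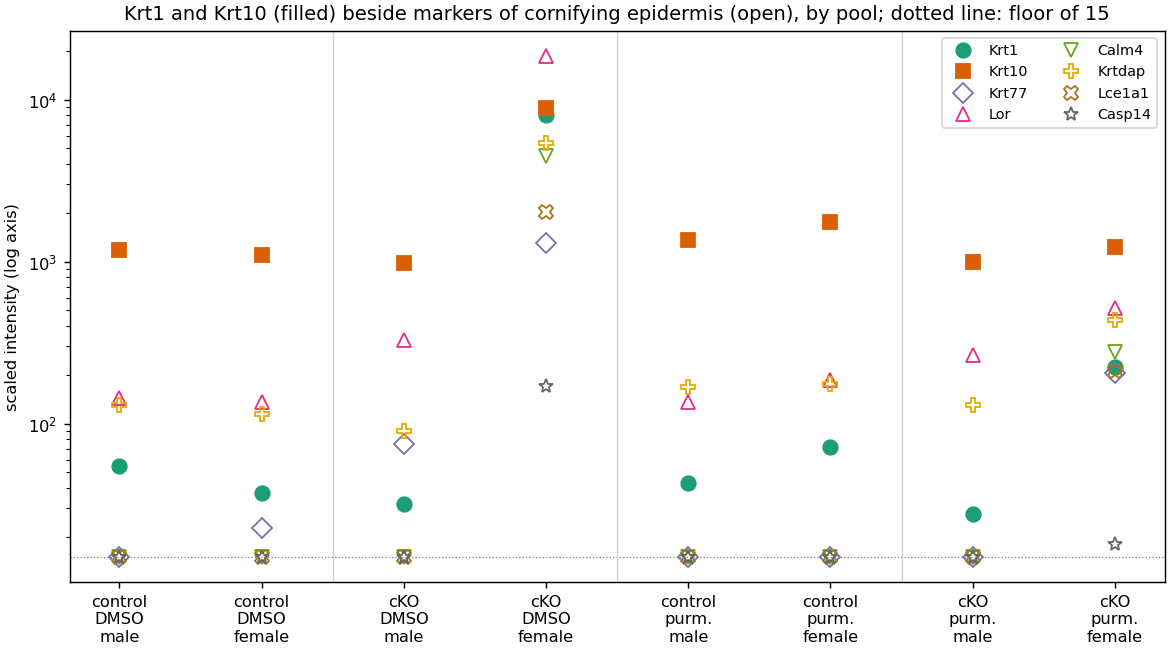
Scaled intensity (log axis) of *Krt1* and *Krt10* (filled, brightest probes) and of 6 markers of cornifying epidermis (open) in each of the 8 pools. All 8 genes had their highest value in the female *Pparg-cKO* DMSO pool, where *Krt1* reached 8048 and *Lor* 18536.

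The other keratins and the genes of squamous differentiation were read from lists. In DMSO, 3.9% of all genes were called by limma in either direction, and the median log2 fold change of all genes was 0.00. Of 30 squamous differentiation genes, 21 were tested and 1 rose, *Dsc1*, a desmosomal cadherin (4.34 ± 0.43, adjusted p = 0.00478), while none fell. The list had a median of 0.90, which was 0.11 between the male and 1.64 between the female pools. All 7 basal and stress keratins were tested and 1 rose, *Krt17*, a keratin of activated and appendage epithelium (3.57 ± 0.57, limma, Benjamini-Hochberg adjusted p = 0.0214). They had a median of 2.19, which was 0.49 between the male and 3.89 between the female pools. All 6 simple-epithelium keratins were tested and 1 fell, *Krt20*, the keratin of superficial urothelial cells (-3.70 ± 0.37, adjusted p = 0.0048), around a median of -0.11. Of 7 other squamous keratins 5 were tested and none was called, with *Krt77* at 3.13 ± 1.23 and *Krt24* at 0.22 ± 0.17 the furthest from 0. In the plot of male against female pairs *Krt4*, *Krt75* and *Krt78* stood near the line of equal change.

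**Figure D3:**
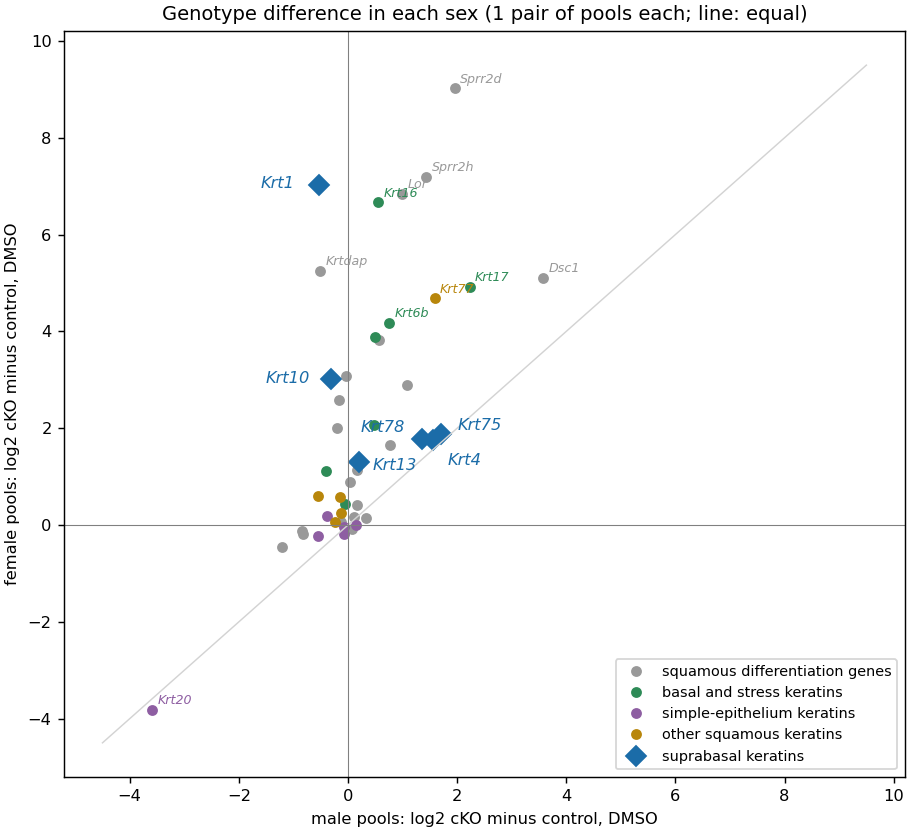
Log2 difference between *Pparg-cKO* and control DMSO pools in males (x axis) and females (y axis), 1 pair of pools each, for the 6 members (diamonds, brightest probes) and the tested genes of 4 lists (circles); the grey line marks equal differences. *Krt4* (1.55 and 1.77), *Krt75* (1.70 and 1.89) and *Krt78* (1.36 and 1.78) lay near the line and *Krt1* (-0.54 and 7.03) and *Krt10* (-0.32 and 3.01) far above it.

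The genotypes were then compared in the presence of purmorphamine. *Krt4*, *Krt75* and *Krt78* were again higher in *Pparg-cKO* ureters, and again 3 members were called higher and 0 lower by limma, where 1.24% of all genes were called higher. The rule of the methods gave the same members, against 3.06% of genes.

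*Krt4* was at 16.4 and 15 in the control pools, at or just above the floor, and at 200 and 128 in the *Pparg-cKO* pools. Its log2 fold change of 2.24 ± 0.17 (limma, Benjamini-Hochberg adjusted p = 0.00368) came from intensities raised by an offset of 50, which compresses changes of dim probes. It was 2.80 with an offset of 10. With processed signals it was 3.35, which is a lower bound since 1 control pool was set to the floor. *Krt75* was at 38.8 and 39.7 in the control pools and at 210 and 163 in the *Pparg-cKO* pools, a log2 fold change of 1.64 ± 0.13 (limma, Benjamini-Hochberg adjusted p = 0.00368). *Krt78* was at 107.1 and 133 in the control pools and at 309 and 328 in the *Pparg-cKO* pools, with 1.20 ± 0.19 (limma, Benjamini-Hochberg adjusted p = 0.028). In each of these genes the groups did not overlap. With either control array left out, none of these 3 was called, and fewer of all genes were called too. Without the male *Pparg-cKO* array the call of *Krt78* was lost, again with fewer calls among all genes. The call of *Krt78* was also lost with processed signals (limma, Benjamini-Hochberg adjusted p = 0.0697) and without a filter on dim probes (0.0501).

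*Krt13* changed by 0.27 ± 0.29 with the brighter probe, which gave 6261 and 4992 in the control and 6914 and 6299 in the *Pparg-cKO* pools. *Krt1* was at 43.1 and 72.1 in the control pools and at 27.6 and 223 in the *Pparg-cKO* pools, so that the female *Pparg-cKO* pool was the highest and the male one the lowest. *Krt10* was at 1354 and 1770 in the control and at 1001 and 1231 in the *Pparg-cKO* pools with the brighter probe, where both *Pparg-cKO* pools were the lower ones. With the dimmer probe it was at 410 and 466 against 308 and 1654, where the female *Pparg-cKO* pool was the highest. The log2 fold changes were 0.45 ± 2.04 for *Krt1* and -0.48 ± 0.88 for *Krt10* (limma, Benjamini-Hochberg adjusted p of 0.956 and 0.881). Of the lists, with 3.14% of all genes called, the squamous differentiation genes had 0 higher and 1 lower, *Ivl*, the gene of the cornified envelope precursor involucrin (-1.22 ± 0.23, adjusted p = 0.0441), around a median of 0.29. Of the basal and stress keratins none was called, with *Krt17* at 1.29 ± 0.57 and *Krt6a* at 1.17 ± 1.04. *Krt20* was the only simple-epithelium keratin called (-2.42 ± 0.37, limma, Benjamini-Hochberg adjusted p = 0.024). None of the other squamous keratins was called, with *Krt77* at 1.85 ± 1.23 and *Krt79* at -0.30 ± 0.28. *Krt77* was at the floor of 15 in both control pools and at 15 and 204 in the *Pparg-cKO* pools.

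Next, the purmorphamine and DMSO pools hybridized to the same array were compared within each genotype. These comparisons share their pools with those between the genotypes, so their values are given side by side and are not independent of them. In *Pparg-cKO* ureters *Krt4* fell by 1.12 ± 0.14 and *Krt78* by 0.90 ± 0.14 on the log2 scale (limma, Benjamini-Hochberg adjusted p of 0.0239 and 0.0401). *Krt4* went from 384 and 354 in DMSO to 200 and 128, and *Krt78* from 483 and 742 to 309 and 328. In both genes both purmorphamine pools lay below both DMSO pools. Thus 2 members were called lower and 0 higher, where 3.1% of all genes were called lower. The rule of the methods gave 3 members lower, *Krt4*, *Krt78* and, through its dimmer probe, *Krt13*, against 4.79% of genes. *Krt75* went from 248 and 285 to 210 and 163, with a log2 fold change of -0.51 ± 0.15 that did not pass (limma, Benjamini-Hochberg adjusted p = 0.126). Without the female *Pparg-cKO* array, which leaves only the male one, *Krt4* was at -0.92 and *Krt78* at -0.66, and neither was called. Without the male *Pparg-cKO* array, which leaves only the female one, they were at -1.33 and -1.13. Without either control array *Krt4* was called and *Krt78* was not (adjusted p = 0.0522).

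In control ureters *Krt4* fell by 1.71 ± 0.14 (limma, Benjamini-Hochberg adjusted p = 0.0213), from 111 and 83.0 to 16.4 and 15. The scaled intensities were 6.75-fold lower on the male and at least 5.53-fold lower on the female array, where the purmorphamine pool was set to the floor. The log2 fold change was -2.22 with an offset of 10 and -2.61 with processed signals. *Krt4* was the only member called, where 1.12% of all genes were called lower. *Krt78* went from 171 and 195 to 107.1 and 133, a log2 fold change of -0.53 ± 0.14, and *Krt75* from 56.2 and 57.9 to 38.8 and 39.7, a log2 fold change of -0.36 ± 0.15. In both genes the purmorphamine pools lay below the DMSO pools without a call (limma, Benjamini-Hochberg adjusted p of 0.145 and 0.27). The rule of the methods gave *Krt13* alone, by its dimmer probe, against 3.69% of genes; *Krt4* missed its intensity threshold. With either control array left out, the call of *Krt4* was lost, together with nearly all calls of other genes. With processed signals *Krt4* was not called in either genotype (limma, Benjamini-Hochberg adjusted p of 0.144 in control and 0.123 in *Pparg-cKO*), nor was any other gene.

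*Krt13* gave different pictures with its probes. The brighter probe went from 7017 and 5954 to 6261 and 4992 in control and from 7694 and 14878 to 6914 and 6299 in *Pparg-cKO* ureters. Every array showed a decrease, but the log2 fold changes of -0.21 ± 0.26 and -0.69 ± 0.26 did not pass (limma, Benjamini-Hochberg adjusted p of 0.742 and 0.217). The dimmer probe went from 607 and 292 to 99.1 and 57.4 in control and from 298 and 653 to 99.0 and 123 in *Pparg-cKO* ureters. Here the purmorphamine pools lay far below the DMSO pools in both genotypes. Its log2 fold changes were -2.19 ± 0.22 and -1.81 ± 0.22 (limma, Benjamini-Hochberg adjusted p over all 27064 probes of 0.0371 and 0.0269). The brighter probe, which covers the conserved start of the rod, stands for the gene in all limma counts above. The rule of the methods counted a gene by any of its probes.

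**Figure D4:**
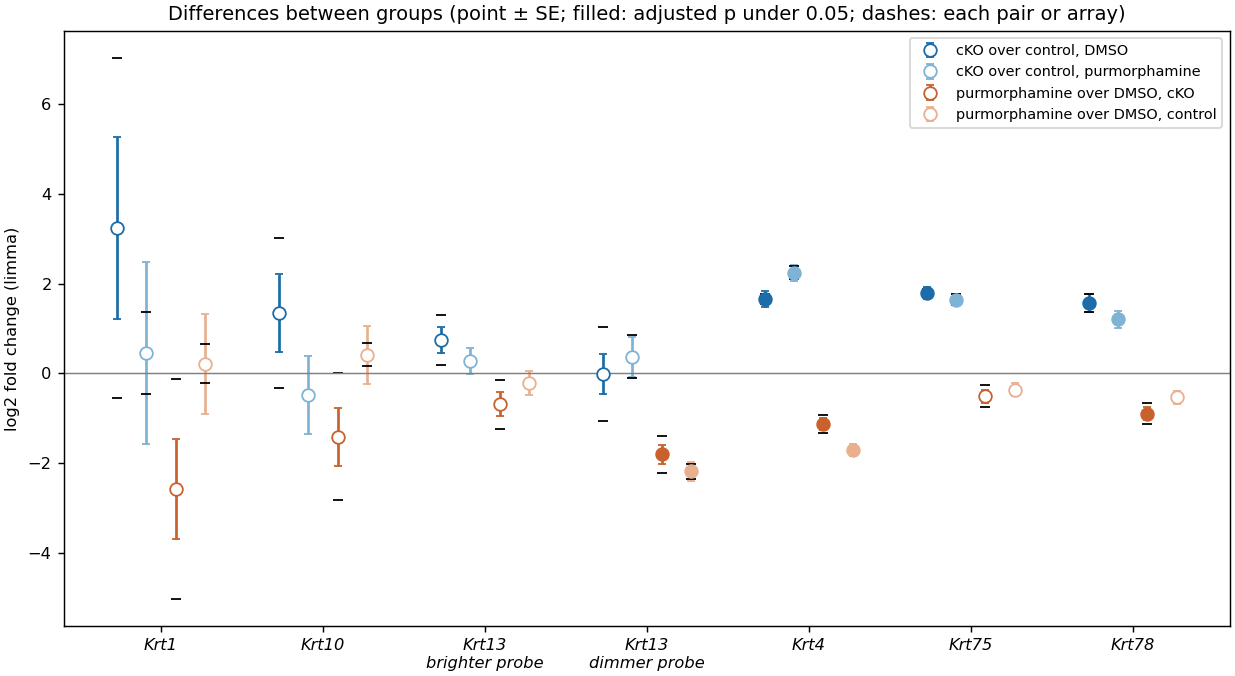
Log2 fold changes from limma (y axis) of the 6 members, with *Krt13* shown by both probes, in 4 comparisons (colors); error bars are SE, filled points have an adjusted p under 0.05, and black dashes give the value of each pair of pools or array. *Krt4*, *Krt75* and *Krt78* had narrow errors between the genotypes, and *Krt1* had the widest, with dashes at -0.54 and 7.03 for the genotypes in DMSO.

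*Krt1* went from 54.6 and 37.1 to 43.1 and 72.1 in control ureters and from 31.8 and 8048 to 27.6 and 223 in *Pparg-cKO* ureters. The female *Pparg-cKO* array thus held a 36.1-fold lower value with purmorphamine, and the male one a 1.15-fold lower value. *Krt10* went from 1188 and 1098 to 1354 and 1770 in control and from 980 and 8841 to 1001 and 1231 in *Pparg-cKO* ureters with its brighter probe. The log2 fold changes in *Pparg-cKO* were -2.58 ± 1.11 for *Krt1* and -1.41 ± 0.65 for *Krt10*, and neither passed (limma, Benjamini-Hochberg adjusted p of 0.266 and 0.293). Of the lists, in *Pparg-cKO* ureters, where 5.12% of all genes were called, *Tgm1*, a cross-linking enzyme of the cornified envelope (-1.53 ± 0.20), and *Dsc1* (-2.83 ± 0.44) fell among the squamous differentiation genes, and *Krt6a* (-1.69 ± 0.27) and *Krt15* (-1.40 ± 0.16) among the basal and stress keratins, with 0 higher in both lists. *Krt77* fell (-1.92 ± 0.30), the only call of its list, and *Krt20* rose (2.43 ± 0.24), the only call of its own. In control ureters, where 1.52% were called, *Tgm1* (-1.48 ± 0.20) and *Krt15* (-1.67 ± 0.16) fell. None of the simple-epithelium or other squamous keratins was called there, with *Krt20* at 1.15 ± 0.24, *Krt23* at -0.53 ± 0.14, *Krt77* at -0.64 ± 0.30 and *Krt79* at -0.53 ± 0.19. *Krt77* was at 15 to 22.7 in the control pools, at or near the floor.

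Whether the response to purmorphamine differed between the genotypes was tested directly, and limma called 0 of the 6 members and 0.0% of all genes (before adjustment, 319 genes had a positive and 351 a negative difference with p under 0.05). The difference, *Pparg-cKO* minus control, was 0.58 for *Krt4* with a 95% interval from 0.09 to 1.08. That of *Krt4* depended on how dim signals were treated, since it was 1.02 with an offset of 10 and 1.41, beyond the interval, with processed signals, and was called under neither. The difference was -0.37 for *Krt78* (-0.89 to 0.15), -0.15 for *Krt75* (-0.69 to 0.38) and -0.47 for *Krt13* (-1.43 to 0.48), intervals that all include 0. For *Krt1* it was -2.79 (-6.82 to 1.24) and for *Krt10* -1.83 (-4.18 to 0.52). Without the male *Pparg-cKO* array, which leaves only the female one, the differences of *Krt1* and *Krt10* were -5.24 and -3.25.

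To see how far treated mutant ureters lay from untreated control ureters, the *Pparg-cKO* purmorphamine pools were set against the control DMSO pools. *Krt75* remained higher, at 210 and 163 against 56.2 and 57.9, with a log2 fold change of 1.28 ± 0.13 (limma, Benjamini-Hochberg adjusted p = 0.00421). It was the only member called higher, where 5.51% of all genes were. Its call was lost without the male control array, where fewer of all genes were called too. *Krt4*, at 200 and 128 against 111 and 83.0, and *Krt78*, at 309 and 328 against 171 and 195, were above both control pools in both treated pools without passing. Their log2 fold changes were 0.53 ± 0.17 and 0.67 ± 0.19 (limma, Benjamini-Hochberg adjusted p of 0.0988 and 0.0712). *Krt13* changed by 0.06 ± 0.29 with the brighter probe and by -1.82 ± 0.45 with the dimmer one, which was called over all probes (limma, Benjamini-Hochberg adjusted p = 0.0492). *Krt1* was at 0.67 ± 2.04 and *Krt10* at -0.07 ± 0.88, and without the male *Pparg-cKO* array *Krt1* was at 1.83.

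The order of the groups was the same for *Krt4*, *Krt75* and *Krt78*, by group means from *Pparg-cKO* in DMSO through *Pparg-cKO* with purmorphamine and control in DMSO to control with purmorphamine. Of the neighbours in this order, *Krt75* did not differ beyond the test's threshold between the treatments of a genotype, *Krt4* and *Krt78* did not between treated *Pparg-cKO* and untreated control ureters, and *Krt78* did not between the treatments of control ureters. Over the 8 pools, *Krt75* and *Krt78* had a Pearson's r of 0.96, *Krt4* and *Krt78* of 0.92 and *Krt4* and *Krt75* of 0.91, whereas *Krt1* and *Krt10* had 0.96 with each other and *Krt1* had 0.40 with *Krt4*. These are descriptions over pools that share arrays, sexes and dyes. *Krt1* was at 8048 in the female *Pparg-cKO* DMSO pool and at 27.6 to 223 in the others. *Krt10* was at 8841 there and at 980 to 1770 in the others with its brighter probe. The correlations of *Krt1* and *Krt10* with each other and with the genes most like them therefore rest mainly on that pool. The genes most like *Krt1* over the 8 pools were *Krtdap* (r = 0.99), *Lce6a* (0.99) and *Casp14* (0.99), and those most like *Krt10* were *Teddm3* (0.99), *Lelp1* (0.98) and *Casp14* (0.97). For *Krt4* they were *Mospd2*, *Desi1* and *5830408B19Rik* (0.99 each), for *Krt75* *Edaradd* (0.996), *Tnfsf10* and *Hmx2* (0.99 each), and for *Krt78* *Dsn1* (0.99), *Defa2* (0.99) and *Elf5* (0.98). For *Krt13* they were *Fam3b* (0.99), *Dmkn* (0.98) and *Gm2155* (0.98) with the brighter and *Itgal*, *Ccl24* and *Lcn2* (0.99 each) with the dimmer probe. An r above 0.95 was reached by 39 other genes for *Krt1*, 16 for *Krt10*, 59 for *Krt4*, 89 for *Krt78* and 159 for *Krt75*, each with its brightest probe. For *Krt13* it was 26 with the brighter and 137 with the dimmer probe.

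Promoter sequence of 4 of the 6 members was at hand (RefSeq, GRCm38.p6), and the 250 bases before the start are shown for *Krt75* and *Krt78*, which rose together without *Pparg*. They were searched on both strands for AGGTCA, the hexamer that PPAR and RXR bind as a repeat, for that repeat with 1 base between (AGGTCANAGGTCA, which also holds the hexamer), and for GACCACCCA (GLI), TGANTCA (AP-1), CCACCC (KLF, part of the GLI letters) and TATAAA. The window of *Krt78* (chr15:101954288-101954537, minus strand) held AGGTCA once, in capitals, 109 bases before the start. That of *Krt75* (chr15:101573905-101574154, minus strand) held none of the motifs.
*Krt78*: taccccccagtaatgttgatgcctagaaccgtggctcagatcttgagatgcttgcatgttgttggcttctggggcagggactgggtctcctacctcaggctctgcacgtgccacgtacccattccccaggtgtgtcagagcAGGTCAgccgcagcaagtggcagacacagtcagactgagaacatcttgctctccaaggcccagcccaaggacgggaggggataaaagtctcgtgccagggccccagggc
*Krt75*: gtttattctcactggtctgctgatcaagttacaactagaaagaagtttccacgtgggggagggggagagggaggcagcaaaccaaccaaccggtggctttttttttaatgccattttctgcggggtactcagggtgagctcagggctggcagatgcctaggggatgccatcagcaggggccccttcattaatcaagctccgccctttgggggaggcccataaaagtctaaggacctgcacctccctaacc
Of all 32851 promoter windows of that length, 14.0% held AGGTCA, 0.0335% the repeat, 0.225% the GLI letters, 6.75% the AP-1 letters, 28.1% CCACCC and 12.4% TATAAA. The windows at the pair of *Krt13* starts held TGANTCA 1 and 2 times, CCACCC 4 and 0 times and AGGTCA 1 and 0 times, and that of *Krt10* held CCACCC and TATAAA 1 time each. A match of letters is a description and not a bound site.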

How the data were processed

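RNA of 8 sex-sorted pools of cultured ureters was labelled with AlexaFluor555 or AlexaFluor647 and hybridized to 4 dual-color arrays on 1 slide with 157716 spots and 4 spots per probe. Mean and background intensity of each spot were, per the file headers, read by Agilent's Feature Extraction software (10.7.3.1 in the submitters' notes) without normalization, and the processed intensity was background-subtracted and dye-normalized within the array by that software. The deposited table of the series holds the authors' own signed fold changes and was not used. The members and lists were chosen with earlier results of these data known.

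Processed signals gave the scaled intensities (geometric mean of spots, 75th percentile set to 1500, floor 15) and the rule of the methods. limma 3.58.1 (R 4.3.3) was applied to mean intensities after normexp (offset 50) and loess. For the genotypes, single channels were fitted after Aquantile normalization (intraspot correlation 0.0587 from 4000 probes), and for the treatments log ratios within arrays were used. Probes well above background (at least 3 of 4 spots) in both pools of a group were tested (27064), the brightest standing for its gene, with Benjamini-Hochberg adjustment. All members were named, and of each list up to 4 called genes with the largest change, or the largest 2 where none was called, and the 3 genes most alike over the pools. In each channel 66.3% to 70.5% of spots exceeded background clearly and 0 were saturated. With 2 pools a group, the precision of group means is limited. Scripts were tested on simulated data. The values of 1 marker are not reported here.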

Additional observations from a re-analysis of the deposited data

Results flagged for a closer look

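Several member probes moved in opposite directions in the male and the female pair of pools. With 1 pair of each sex, and with dye exchanged along with sex, these differences were not tested. Between the genotypes in DMSO, the female minus the male log2 difference was 7.57 for *Krt1*, 3.33 for the brighter and 5.11 for the dimmer probe of *Krt10*, and 2.11 for the dimmer probe of *Krt13*, each with a lower value in *Pparg-cKO* in the male and a higher one in the female pair. With purmorphamine it was 1.81 for *Krt1*, 2.31 for the dimmer probe of *Krt10* and 0.95 for the dimmer probe of *Krt13*, in the same sense. For purmorphamine over DMSO in *Pparg-cKO* ureters it was -2.83 for the brighter and -2.60 for the dimmer probe of *Krt10*, with a change close to 0 in the male pools. In control ureters it was 0.87 for *Krt1*.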

How the results depend on the processing

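Of the member log2 fold changes, 10 were called. Under 114 alternatives of these, including fits with an array left out, none changed direction, while only 87 stayed past the threshold. Many of these alternatives, such as no filter, the replicate block or adjustment over all probes, left the log2 fold change as it was. The direction could not change there. Leaving out an array gave 0 to 6 members called between the genotypes in DMSO, 0 to 3 with purmorphamine, 0 to 5 for purmorphamine in *Pparg-cKO*, 0 to 1 in control, 0 to 2 for the difference of these responses and 0 to 2 for treated *Pparg-cKO* over untreated control ureters. Each of these fits left 1 pool or array in a group and cannot measure the spread within that group. The highest counts in DMSO and for purmorphamine in *Pparg-cKO* came from the fit without the male *Pparg-cKO* array. There the disagreement of the pairs, such as -0.54 in males and 7.03 in females for *Krt1* in DMSO, did not enter the error. No conclusion is drawn from these counts. In the first 4 comparisons, 1 pair alone gave as many or more members past the rule of the methods, and more of all genes. *Krt13* was then lower in the male pair in DMSO, and *Krt10* higher in the female pair of control ureters. Processed signals and the absence of a filter on dim probes each gave 0 members for purmorphamine in both genotypes. All genes called with processed signals were also 0 (before adjustment, 2277 rose and 2171 fell with p under 0.05 in *Pparg-cKO*). Without the filter, 134 of all genes were called higher and 189 lower in *Pparg-cKO*, and 2 and 11 in control. With a fold threshold of 2 the rule gave 1 member for purmorphamine in *Pparg-cKO*, where 276 of 15402 genes were lower. With an intensity threshold of 50 or none it gave 2 in control, where 649 of 16540 and 766 of 29924 genes were lower. The dimmer *Krt13* probe, an alternative chosen after seeing the data, gave 3 members for purmorphamine in *Pparg-cKO*, 2 in control and 2 for treated *Pparg-cKO* over untreated control. All other genes kept their probes there. The cause of these changes was not tested. Values that changed sign were all uncalled in the main setting. Leaving out an array gave *Krt1* -0.36 to 6.85 in DMSO, -0.71 to 1.62 with purmorphamine, -0.22 to 0.65 for purmorphamine in control and -0.49 to 1.83 for treated over untreated, *Krt10* -0.25 to 2.94 in DMSO, -2.83 to 0.0033 for purmorphamine in *Pparg-cKO* and -0.24 to 0.11 for treated over untreated, *Krt13* -1.02 to 0.072 for the difference of the responses and -0.016 to 0.13 for treated over untreated, and *Krt75* -0.40 to 0.091 for the difference. The mean of all probes gave *Krt10* 0.072 with purmorphamine and 0.40 for treated over untreated, and *Krt13* -0.88 for the latter, where no normalization between arrays gave -0.16. The dimmer *Krt13* probe gave -0.013 in DMSO, 0.38 for the difference and -1.82 for treated over untreated, and processed signals gave *Krt75* 0.015 for the difference. Without normalization between arrays the median of all genes shifted to -0.15 in DMSO, and 342 genes were higher and 722 lower, compared with 404 and 385. With purmorphamine it was 196 and 757, compared with 250 and 385.

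Pools of the same number have sex and dye in common and were made from other animals, and their deviations from the group means correlated with r = -0.15 in DMSO and 0.47 with purmorphamine. With the replicate block 3, 3, 2, 1, 0 and 2 members were called in the comparisons in the order above, where *Krt78* was added for treated over untreated (adjusted p = 0.0393), and 392 genes were higher and 359 lower between the genotypes in DMSO. The crossed pairing, tried after seeing the data, gave 341 and 285.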
